A study of Mus musculus with 576 samples.

Results

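The comparison described here sets cells cultured for 72 hours with dexamethasone, a synthetic glucocorticoid, against cells cultured for the same time without it. Members were the wells of the dexamethasone day 3 plate and of the control day 3 plate in which no fewer than 50000 counts and 1500 detected genes were found and mitochondrially encoded (mt-) genes took 20% of the counts or less. These were 187 of the 563 cells kept in the whole series, 94 of 95 wells with dexamethasone and 93 of 96 wells of the control. The 4 wells left out all fell short of the count minimum.

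All cells came from the liver of C57/Bl6J mouse embryos at embryonic day 14.5. Cells bearing Ter119, CD41, Sca-1, CD16/32 or the lineage antigens CD11b, CD3e, CD45R and Ly-6G were depleted, and the rest was stained for CD117 (the Kit receptor), CD71 (the transferrin receptor) and CD24 and sorted for burst forming unit-erythroid (BFU-E) enriched cells. Control and dexamethasone cultures shared the medium SFEM2, to which 100 ng/mL of stem cell factor, 2 U/mL of erythropoietin and 40 ng/mL of IGF1 (insulin-like growth factor) had been added. The dexamethasone culture also held dexamethasone at 100 nM. Polyadenylated RNA of single wells was sequenced, and each side of the comparison is 1 plate. Nothing in the labels says that the plates came from separate cultures or litters, so plate and treatment cannot be told apart and no test of the difference is given. Cells describe their own plate and are not replicates of a treatment.

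As background, BFU-E are early committed progenitors that pass through later erythroid stages to become erythroblasts, which make globin and heme, import iron through the transferrin receptor, build a spectrin and band 3 membrane skeleton and then remove their organelles. Glucocorticoids bind the receptor encoded by Nr3c1, which moves to the nucleus and regulates target genes such as Per1, Tsc22d3, Fkbp5 and the metallothioneins. In erythroid progenitors glucocorticoids are known for prolonging self-renewal before terminal differentiation.

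Expression of a gene on a plate is given as CPM, the summed count of the gene as a rate of the plate total, after scaling with the trimmed mean of M-values (TMM). Differences are log2 ratios of dexamethasone over control with a prior count of 2. A log2 ratio of 1 is a 2-fold higher level with dexamethasone. Values in a single cell are CPM of that cell's own total. Intervals are exact 95% intervals, Poisson for CPM and Clopper-Pearson for shares of cells. The Poisson intervals take each read as a separate count. Reads carry no molecular identifiers, so these intervals do not cover the error of molecule counts or the spread between cells. The Clopper-Pearson intervals take cells as draws from their own plate. Neither kind covers differences between plates.

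A median control cell held 1244026 counts and 6961 genes with a count, and a median dexamethasone cell held 1094563 counts and 8520 genes. With every cell thinned to 400000 counts, which left 92 cells on each side, the medians were 5716 genes in control and 7730 with dexamethasone. The dexamethasone cells thus had more genes with a count at equal depth. The mt- share had a median of 3.38% in control and 5.69% with dexamethasone. It counts the mitochondrial rRNA rows mt-Rnr1 and mt-Rnr2 and so is not separate from the rRNA differences given next. The 8 measured mt- protein genes had a median log2 ratio of 0.14, from -0.72 (mt-Co1) to 1.18. Rows that the annotation calls ribosomal RNA differed. CT010467.1, an rRNA row on chromosome 17 (39846353 to 39848827, minus strand), stood at 9010 CPM in control and 72040 CPM with dexamethasone, and its single cells ran from 5444 through a median of 8373 to 60400 CPM in control and from 8647 through 71080 to 119100 CPM with dexamethasone. On days 1 and 2 the same row was 27610 and then 65340 CPM in control, against 27400 and then 64520 CPM in the dexamethasone plates, so the control plate of day 3 is the lowest of the 6. The mitochondrial rRNA mt-Rnr2 was at 8849 CPM in control and 32980 CPM with dexamethasone. With the rRNA rows left out, a choice made after seeing the data, the counts of genes past 2-fold given below (690 higher and 769 lower) were 740 and 760. Across the plates, 95 index pairs occurred on both sides and name wells, not cells.

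Of the marker lists for other cell types, the macrophage, lymphoid and hepatic or stromal lists had no cell with 3 or more genes at 10 CPM on either plate, which allows a share of up to 3.89% of control cells and 3.85% of dexamethasone cells. C1qa, C1qb and C1qc had no count on either plate, Cd3g, Pax5, Ebf1 and Rag2 had none, and Alb had none. Other members of these lists had reads. The macrophage gene Cd68 was at 9.76 CPM in control and 10.4 CPM with dexamethasone. In the lymphoid list Nkg7 was at 6.77 and 1.05 CPM and Cd79b at 4.91 and 3.59 CPM. Pecam1 of the hepatic or stromal list was at 15.3 and 6.58 CPM. The neutrophil list had 3 or more genes at 10 CPM in 9 control cells and 8 dexamethasone cells and the mast cell list in 2 and 3. The summed mast-list level per cell nevertheless had a median of 51.8 CPM in control and 224.7 CPM with dexamethasone. Srgn was its leading gene on both plates. Hdc, also of this list, had a count in 8 of 93 control cells and 52 of 94 dexamethasone cells. Counting all 3 myeloid lists, 9 control cells with erythroid scores of 2.91 to 10.63 and 10 dexamethasone cells with scores of 2.15 to 7.63 were marked. The megakaryocyte list had 3 or more genes at 10 CPM in 36 control cells and 85 dexamethasone cells. Its summed level per cell ran from 0 through 186.1 to 2342 CPM in control and from 37.3 through 322.1 to 10820 CPM with dexamethasone. Its leading genes were Cd9 in control and Itga2b with dexamethasone, while Ppbp, Gp6 and Clec1b had no count on either plate.

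Erythroid genes stood higher in cells of the control plate than in cells of the dexamethasone plate. An erythroid score was taken for each cell as the mean log2(CPM + 1) over 25 genes of globin, heme, membrane and erythroid regulation. Its lowest, median and highest values were 2.91, 8.76 and 11.18 in control and 2.15, 6.57 and 10.58 with dexamethasone, with quartiles of 7.55 and 9.85 against 5.89 and 7.76. The ranges overlapped over most of their length, yet the difference of medians was -2.2. Of 94 dexamethasone cells 11 (11.7%, interval 5.99% to 20%) lay at or above the control median, and of 93 control cells 12 (12.9%, interval 6.85% to 21.5%) lay at or below the dexamethasone median. The highest dexamethasone score was exceeded by 9 control cells, and 6 dexamethasone cells lay below the lowest control score. For orientation, the control plates of days 1 and 2 had medians of 4.94 and 8.18 and the dexamethasone plates 4.27 and 5.08. Within each plate the score went down with the count per cell (Spearman -0.43 over 93 control cells and -0.37 over 94 dexamethasone cells) and with genes per cell (-0.72 and -0.55). In cells thinned to 400000 counts the plate medians of the score were 8.79 and 6.58, and their difference was again -2.2.

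**Figure D1:**
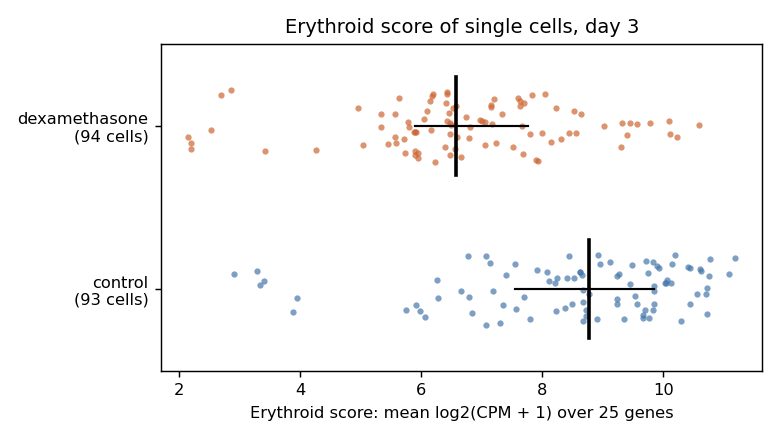
Erythroid score of each kept day 3 cell (x axis, mean log2(CPM + 1) over 25 genes) by plate. Each point is a cell, the thick bar is the plate median and the thin line spans the quartiles. The control median of 8.76 lies above the upper quartile of the dexamethasone plate at 7.76, and a few cells of both plates lie below a score of 5.

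Of 9492 genes measured on day 3 (a mean of at least 5 CPM over both plates and a count in at least 10 cells), 690 (7.27%) were at least 2-fold higher with dexamethasone and 769 (8.1%) at least 2-fold lower. The median log2 ratio of all measured genes was -0.02, and 48.4% were higher in sign. Protein coding genes made up 95.7% of the higher and 90.9% of the lower genes. A single cell held over 25% of the larger plate sum for 185 of the 769 lower genes (24.1%) and for 44 of the 690 higher ones (6.38%), against 6.17% of all measured genes. Reads of the lower genes were thus concentrated in single cells more often than those of the higher genes.

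Restricted to genes that averaged 20 CPM or more and had no such dominant cell, the lowest with dexamethasone was Tmcc2, which encodes a transmembrane coiled-coil protein. It stood at 988.8 CPM in control (interval 983 to 995) and at 4.23 CPM with dexamethasone (interval 3.84 to 4.65), a log2 ratio of -7.86. A count of Tmcc2 was found in 82 of 93 control cells (88.2%) and in 13 of 94 dexamethasone cells (13.8%), and thinned to equal depth in 76.1% and 10.9%. Its single cells ran from 0 through 11.6 to 21290 CPM in control and from 0 through 0 to 202 CPM with dexamethasone. The reads came from few wells, and 4 control cells held 50% of the Tmcc2 reads of their plate.

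The other lowest genes ran from a log2 ratio of -4.91 to -3.28. Slfn14, a schlafen family endoribonuclease, was at 107 CPM in control and 3.55 CPM with dexamethasone. Tinagl1 was at 103 and 4.94 CPM, and the formin Fhdc1 at 164 and 11.1 CPM. Several encode enzymes or carriers of known function. Ubiquitin enzymes were Ube2o, which remodels the proteome of maturing red cells, at 147 and 10.9 CPM and Ube2h at 156 and 13.9 CPM. Membrane carriers were Slc22a4, an ergothioneine transporter, at 92.8 and 9.47 CPM and Slc2a1, the glucose transporter GLUT1, at 520.8 and 53.8 CPM. The remaining genes were Prokr1 (log2 ratio -3.75), Pir (-3.72), the stress pseudokinase Trib3 (-3.60), Tcp11l2 (-3.58), the heme enzyme Alas2 (-3.35), the lysosomal protease Lgmn (-3.30) and Ypel4 (-3.28).

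Globin transcripts were at least 2-fold lower with dexamethasone in 4 of 5 measured genes, where 8.1% of all measured genes were, and the median log2 ratio was -1.69. Hbb-bs, an adult beta globin, stood at 9322 CPM in control and 3292 CPM with dexamethasone, a log2 ratio of -1.50. Single cells ran from 42.02 through 7554 to 45310 CPM in control and from 13.4 through 2326 to 31850 CPM with dexamethasone, so the groups overlapped widely. Hba-a1, an alpha globin, was at 4160 and 1291 CPM (-1.69), Hbb-bt at 2274 and 396.8 CPM (-2.52) and Hba-a2 at 165 and 33 CPM (-2.33). The copies of each pair are nearly identical and the counting rule for shared reads is not given in the sources used here, which leaves the split between copies uncertain. The fifth gene, the embryonic zeta-type globin Hba-x, had no count in control and 21.9 CPM with dexamethasone, of which 1 cell held most, with 2069 CPM in that cell and a count in 11 of 94 cells.

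Heme synthesis genes were lower in sign in 18 of 18 measured members, against 51.6% of all measured genes, 10 of them by at least 2-fold, with a median of -1.08. Alas2, the erythroid enzyme of the rate-limiting step, had single-cell values of 2.57, 871 and 16850 CPM (lowest, median and highest) in control and 0, 4.35 and 3685 CPM with dexamethasone. Every control cell had an Alas2 count and 75 of 94 dexamethasone cells did. Later steps of the pathway differed less. Fech, which inserts iron into the ring, was at 2828 and 1026 CPM (-1.46), Urod at 735 and 279 CPM (-1.40) and Uros at 510 and 166 CPM (-1.62). The smallest differences were those of Cpox (-0.47) and the mitochondrial transporter Tmem14c (-0.32). Alas1, the housekeeping form of the first enzyme, had a plate ratio of -0.81 but a higher median cell with dexamethasone, 9.78 CPM against 0.859 CPM.

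Iron handling was mixed, with 11 of 18 measured members lower in sign, 6 at least 2-fold lower, 1 at least 2-fold higher and a median of -0.43. Here and for each list below, the shares over all measured genes were 7.27% at least 2-fold higher and 8.1% at least 2-fold lower. The transferrin receptor Tfrc stood at 5180 CPM in control and 1591 CPM with dexamethasone (-1.70), and its single cells ran from 88.5 through 4376 to 15410 CPM and from 25.4 through 1278 to 7054 CPM. The mitochondrial iron importer Slc25a37 was at 1407 and 334.5 CPM (-2.07), and Erfe, the erythroid hormone that lowers hepcidin, at 90.4 and 17.2 CPM (-2.39). The ferritin light chain Ftl1 was at -1.05 and the heavy chain Fth1 at -0.44. Iron regulatory and chaperone genes went the other way in sign, with Aco1 at 0.68, Pcbp1 at 0.64 and the ferrireductase Steap3 at 0.62. The heme exporter Flvcr1 was at 4.64 CPM in control and 11.2 CPM with dexamethasone (1.27).

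Of 18 membrane skeleton genes 8 were at least 2-fold lower, 15 were lower in sign and the median was -0.78. Slc4a1, the band 3 anion exchanger that anchors the skeleton, stood at 3376 and 444.5 CPM (-2.92). Its lowest, median and highest cells were 9.52, 1885 and 17530 CPM in control, against 0, 6.34 and 6482 CPM with dexamethasone. The dexamethasone plate was thus mostly low with a high minority, and 5 of its cells held 50% of the Slc4a1 reads, against 16 cells in control. Dmtn (-2.57), Epb42 (-2.05), Epb41 (-1.64), Tmod1 (-1.59), Tpm1 (-1.27) and Add1 (-1.19) were also lower. The beta spectrin Sptb was at -0.65 and the ankyrin Ank1 at -0.37. Actb, which is expressed in all cells, was at 5828 and 5871 CPM.

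Red cell surface genes were lower in sign in 19 of 23 measured members, with 8 at least 2-fold lower, 3 at least 2-fold higher and a median of -0.76. The glycophorin gene Gypc (-1.61) and the blood group gene Rhd (-1.48) were among the lower members. Rhag, the partner of Rhd, was at 913 and 948 CPM (0.05), so members of the Rh complex differed in their ratios. The 3 higher members were the water and glycerol channel Aqp3 (6.76 and 39.5 CPM, 2.54), the water channel Aqp1 (18.1 and 55.7 CPM, 1.62) and carbonic anhydrase Car1 (65.5 and 142 CPM, 1.12). Car2 was at 4315 and 2844 CPM (-0.60).

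Organelle clearance and terminal remodelling genes were at least 2-fold lower in 19 of 24 measured members and lower in sign in 23, with a median of -1.42. Trim10 was at 695 and 79.5 CPM (-3.13), Xpo7, a nuclear exporter of terminal erythroid maturation, at 282 and 34.3 CPM (-3.04), Hemgn at 1168 and 237 CPM (-2.30) and Bpgm, which makes 2,3-bisphosphoglycerate, at 265.9 and 62.8 CPM (-2.08). The mitophagy receptor Bnip3l was at 436 and 177 CPM (-1.30) and the autophagy gene Map1lc3b at 259.6 and 112 CPM (-1.21). Ucp2 was at -0.27. Arid3a was the only measured member higher in sign, at 0.51.

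**Figure D2:**
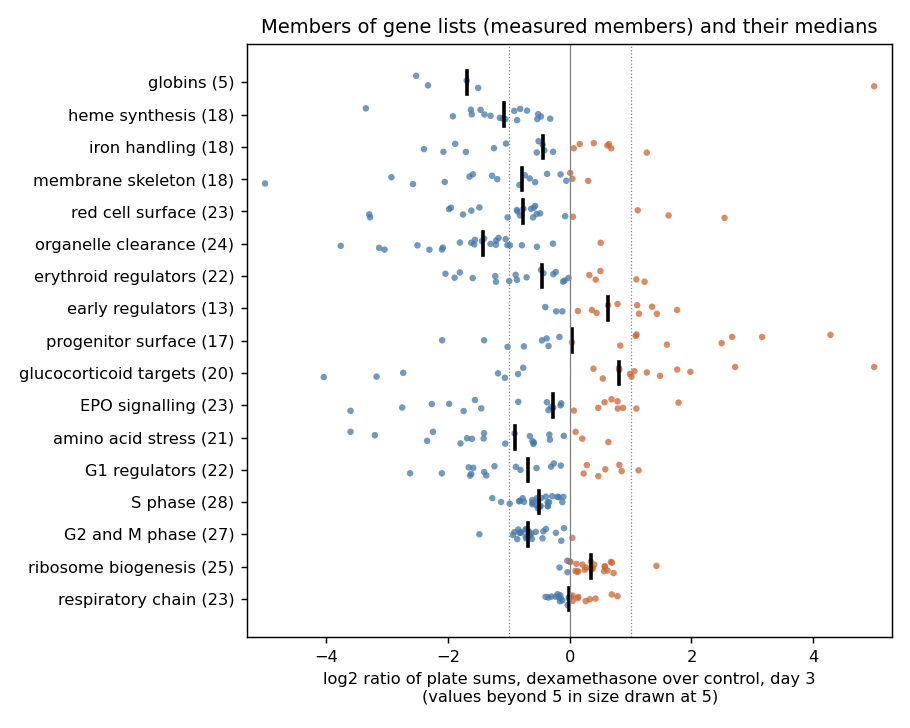
Log2 ratio of plate sums, dexamethasone over control on day 3 (x axis), for the measured members of 17 gene lists, with the number of members in brackets. Points are genes, orange above 0 and blue below, black bars are list medians, dotted lines mark 2-fold. Heme synthesis lies wholly below 0 with a median of -1.08, while glucocorticoid targets have a median of 0.81 and spread to both sides.

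Plate sums and typical cells gave different pictures for some late genes. In 118 of the 769 genes that were at least 2-fold lower in the sum (15.3%), a dexamethasone cell was above a control cell in over 50% of all pairs of cells, and no gene (0 of 690) showed the converse. A dexamethasone cell was above in 80% or more of pairs for 78 measured genes (0.822%) and in 20% or fewer for 21 (0.221%). Over all measured genes the median share of pairs with the dexamethasone cell above was 58.6%. Slc2a1 had median cells of 11.3 CPM in control and 27.4 CPM with dexamethasone, against highest cells of 11810 and 1578 CPM. Xpo7 had medians of 17.9 and 23 CPM and highest cells of 8622 and 182 CPM, and Bpgm medians of 21.1 and 49.9 CPM and highest cells of 4903 and 338 CPM. These 3 genes had a lower plate sum and a higher median cell with dexamethasone. In control, 50% of the plate's reads lay in 3 cells for Xpo7, 4 for Slc2a1 and 6 for Bpgm, against 15, 12 and 16 cells with dexamethasone. For Gapdh, a glycolytic enzyme of all cells, the numbers were 26 and 31.

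**Figure D3:**
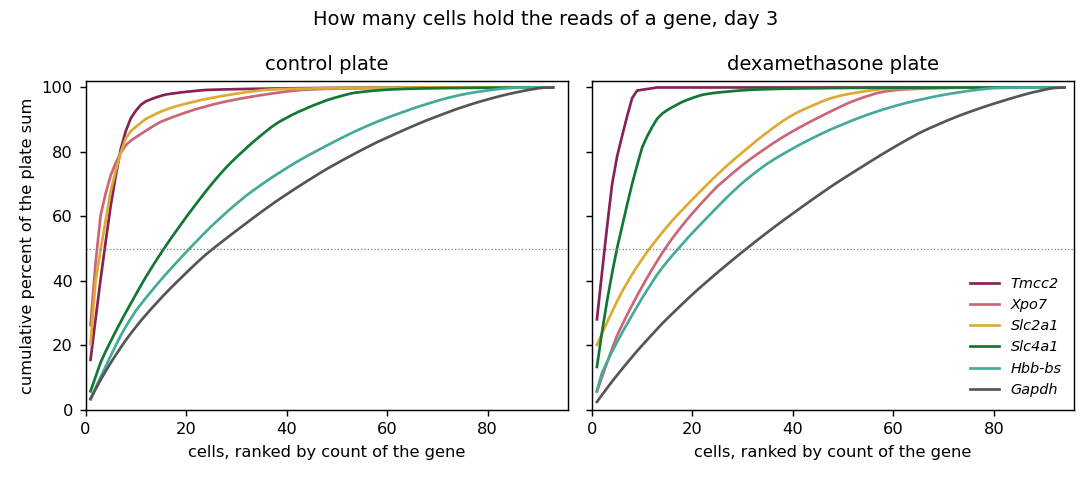
Cumulative percent of a gene's plate sum (y axis) over cells ranked by their count (x axis), for 6 genes on the control plate (left) and the dexamethasone plate (right) of day 3. The dotted line marks 50%. In control, Tmcc2, Xpo7 and Slc2a1 reach it within 4 cells and Gapdh at 26 cells. With dexamethasone, Slc4a1 reaches it at 5 cells and Slc2a1 at 12.

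Erythroid regulators went in both directions. Of 22 measured members 6 were at least 2-fold lower, 2 at least 2-fold higher and the median was -0.45. Gata1, the central erythroid transcription factor, was at 568.8 and 312.5 CPM (-0.86), and Klf1, which activates beta globin, at 599.6 and 445 CPM (-0.43). Tal1 was at -0.71, Gfi1b at -0.08 and Bcl11a at -0.02. The lower regulators were E2f2 (235 and 57.2 CPM, -2.04), Sox6 (-1.89), Mafg (-1.80), Nfe2 (640 and 212.5 CPM, -1.59), Klf3 (-1.22) and Tfdp2 (-1.21). The higher ones were Myb, a factor of proliferating progenitors, at 23.1 and 54.1 CPM (1.23) and Stat5a at 43.5 and 93.0 CPM (1.10). Myb had a count in 45 of 93 control cells and 80 of 94 dexamethasone cells, with medians of 0 and 32.9 CPM.

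Regulators of earlier stages or other lineages leaned to higher values, with 5 of 13 measured members at least 2-fold higher, none at least 2-fold lower and a median of 0.63. Gata2, the GATA factor that Gata1 replaces during erythroid commitment, was at 18.7 and 41.2 CPM (1.14) and was found in 33.3% of control cells (interval 23.9% to 43.9%) and 76.6% of dexamethasone cells (66.7% to 84.7%). Thinned to equal depth these shares were 27.2% and 67.4%. Spi1, which encodes PU.1, was at 16.2 and 43.7 CPM (1.43), Etv6 at 13.8 and 47.1 CPM (1.76), Hhex at 22.3 and 48.0 CPM (1.11) and Meis1 at 7.68 and 19.7 CPM (1.35). Meis1 had a count in only 14 control and 18 dexamethasone cells, and 2 cells held 50% of its reads on each plate.

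Surface receptors of progenitors split in both directions, with 7 of 17 measured members at least 2-fold higher, 3 at least 2-fold lower and a median of 0.04. Kit, the receptor for stem cell factor and one of the sort markers, stood at 49.5 CPM in control (interval 48.2 to 50.8) and 279 CPM with dexamethasone (276 to 282), a log2 ratio of 2.50. Its single cells ran from 0 through 0 to 485.6 CPM in control and from 0 through 216 to 974 CPM with dexamethasone. A Kit count was present in 45 of 93 control cells (48.4%, interval 37.9% to 59%) and 89 of 94 dexamethasone cells (94.7%, 88% to 98.3%), and at equal depth in 37% and 93.5%. A dexamethasone cell was above a control cell in 86.9% of pairs. Il1rl1, the interleukin 33 receptor, was at 10.4 and 66.1 CPM (2.67) and the endoglin gene Eng at 3.83 and 34.4 CPM (3.16). Igf1r, the receptor for the growth factor in the medium, was at 51.7 and 111 CPM (1.10), with median cells of 7.18 and 106 CPM. The members that were lower, Fcgr3 (-2.09), Fcgr2b (-1.40) and Csf2rb (-1.02), are known from myeloid cells, and for Fcgr3 and Fcgr2b 2 control cells held 50% of the plate's reads. The direction of Fcgr3 and Fcgr2b turned with the cells used. Among cells of like erythroid score Fcgr3 was at 0.73 and Fcgr2b at 4.68, and without myeloid-marked cells Fcgr2b was at 4.15. Cd34 was at 27.2 and 48.5 CPM with a median cell of 0 on both plates.

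Within each plate, cells with more Slc4a1 had less Kit, Myb and nucleophosmin (Npm1). Spearman correlations of Slc4a1 with Kit were -0.66 over 93 control cells and -0.52 over 94 dexamethasone cells, with Myb -0.70 and -0.51, and with Npm1 -0.82 and -0.58. Slc4a1 and Hba-a1 went together, at 0.91 in control and 0.62 with dexamethasone. These cells share a plate and each cell's values share a total, so the correlations are descriptions.

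**Figure D4:**
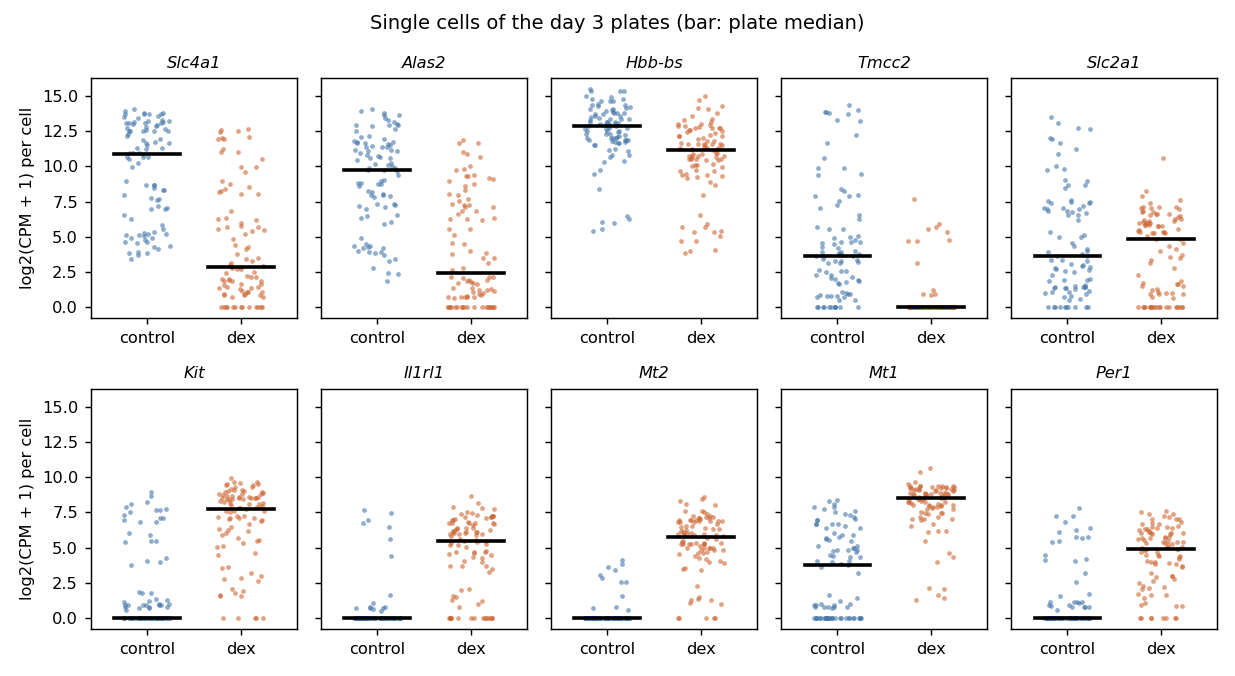
Single-cell levels, log2(CPM + 1) on the y axis, of 10 genes in control and dexamethasone (dex) cells of day 3. Each point is a cell and bars are plate medians. Slc4a1 and Alas2 lie low in most dexamethasone cells with a high minority, Kit, Il1rl1 and Mt2 have a median of 0 in control only, and for Slc2a1 the control plate holds the highest cells but the lower median.

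Genes known as direct targets of the glucocorticoid receptor were higher in sign in 13 of 20 measured members, at least 2-fold higher in 8 and at least 2-fold lower in 5, with a median of 0.81. Mt2, Fkbp5, Per1 and Tsc22d3 were used in earlier work on these data to choose how the header is read against the columns, and the direction of these 4 genes is therefore not independent evidence. The reading sets the plate of every well, so genes that go with these 4 across cells share this limit. Per1, a clock repressor, was at 12.8 CPM in control and 43.6 CPM with dexamethasone (1.77), with cells of 0, 0 and 220 CPM (lowest, median and highest) and 0, 29.4 and 189 CPM. Zfp36l2, an RNA-decay factor of BFU-E, was at 8.04 and 31.8 CPM (1.98), Zfp36l1 at 5.29 and 14.8 CPM (1.48) and Fkbp5, a co-chaperone that limits the receptor, at 12.8 and 26.8 CPM (1.06). Tsc22d3, which encodes the leucine zipper protein GILZ, was at 37.6 and 74.7 CPM (0.99). Median cells of these 5 genes were 0 CPM in control, except 0.755 CPM for Zfp36l1, and between 8.96 and 47.2 CPM with dexamethasone. The 5 lower members were Anxa1 (-4.04), Gadd45a (-3.17), Lcn2 (-2.73), Zfp36 (-1.17) and Sesn1 (-1.06). A control cell with an erythroid score of 3.28 and neutrophil markers held 63.3% of the Anxa1 reads and 99.2% of the Lcn2 reads of its plate, and without it their log2 ratios were -2.59 and 4.16. The receptor itself, Nr3c1, was at 45.7 and 62.1 CPM (0.44), and of 17 receptor and chaperone genes none was at least 2-fold higher, 1 was at least 2-fold lower and the median was -0.15.

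The metallothioneins, small cysteine-rich proteins that bind zinc and copper, were the targets with the largest ratios towards higher levels. Mt2 stood at 0.963 CPM in control (interval 0.790 to 1.16) and 76.5 CPM with dexamethasone (74.8 to 78.2), a log2 ratio of 6.28. Single cells ran from 0 through 0 to 16.5 CPM in control and from 0 through 53.7 to 383 CPM with dexamethasone. Mt2 counts were found in 12 of 93 control cells and 89 of 94 dexamethasone cells, and a dexamethasone cell was above a control cell in 96.2% of pairs. Mt1 was at 56.97 and 375 CPM (2.72), with cells of 0, 12.5 and 332 CPM in control, against 1.45, 359 and 1636 CPM with dexamethasone. Across dexamethasone cells Mt1 and Mt2 had a Spearman correlation of 0.86 (94 cells), and across control cells 0.44 (93 cells). Mt2 was among the genes used to choose the header reading. Its direction, and that of Mt1, which went with it across cells, is not independent evidence. Of the other 4 measured genes of the zinc list none was at least 2-fold different, and the importer Slc39a8 was at -0.98. The zinc exporter Slc30a1, under the level for a measured gene, was at 7.15 and 0.509 CPM.

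Mt2 and Mt1 are neighbours on chromosome 8, and the 250 bases before their RefSeq start sites (build GRCm38.p6, plus strand, 5′ to 3′) are shown because both genes had higher levels with dexamethasone. Capitals mark matches on either strand to the core of the metal response element, searched as TGCACNC and TGCGCNC. Alas2 on chromosome X and Hbb-bs on chromosome 7 (minus strand) are shown beside them as genes that were lower. There, capitals mark the GATA motif AGATAA and the CACCC-type motif CCNCACCC on either strand, which bind GATA and Krüppel-like factors.
Mt2, chr8:94172368-94172617: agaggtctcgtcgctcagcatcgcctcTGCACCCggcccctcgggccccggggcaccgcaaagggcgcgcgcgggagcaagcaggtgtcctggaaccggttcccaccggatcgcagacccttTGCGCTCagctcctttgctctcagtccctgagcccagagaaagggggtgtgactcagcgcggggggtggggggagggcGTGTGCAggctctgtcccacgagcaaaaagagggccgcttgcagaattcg
Mt1, chr8:94178839-94179088: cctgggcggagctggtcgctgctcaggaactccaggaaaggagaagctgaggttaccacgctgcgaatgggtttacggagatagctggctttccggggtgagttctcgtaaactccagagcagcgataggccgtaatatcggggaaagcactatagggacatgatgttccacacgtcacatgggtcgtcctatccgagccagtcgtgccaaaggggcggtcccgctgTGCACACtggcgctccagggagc
Alas2, chrX:150547167-150547416: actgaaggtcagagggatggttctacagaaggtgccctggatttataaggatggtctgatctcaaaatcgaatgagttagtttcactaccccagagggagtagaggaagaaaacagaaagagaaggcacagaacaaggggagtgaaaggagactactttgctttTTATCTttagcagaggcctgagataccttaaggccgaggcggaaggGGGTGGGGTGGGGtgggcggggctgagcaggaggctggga
Hbb-bs, chr7:103827929-103828178: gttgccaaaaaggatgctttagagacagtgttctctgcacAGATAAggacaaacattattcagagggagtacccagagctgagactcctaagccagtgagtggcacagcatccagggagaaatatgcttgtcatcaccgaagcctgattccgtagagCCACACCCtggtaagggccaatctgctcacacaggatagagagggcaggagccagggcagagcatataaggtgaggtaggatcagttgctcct
The Mt2 window holds 3 matches to the metal response core and the Mt1 window 1. Such a match was present in 21.4% of the 32851 promoter windows of the same length and in 34.5% of those of measured genes (34.2% of the 2-fold higher and 34.4% of the 2-fold lower genes). Alas2 and Hbb-bs each hold 1 GATA match, as do 9.99% of all windows, and Alas2 holds 2 overlapping CACCC-type matches and Hbb-bs 1 (Mt2 also holds 1, not marked), against 14.9% of all windows. None of the 4 windows holds the full glucocorticoid response element searched as AGAACANNNTGTTC, which occurs in 0.0304% of windows, while Alas2 and Hbb-bs each hold 1 match to its arm AGAACA, as do 16.1% of windows. Among genes with a window, the GATA motif was present in 8.08% of the 2-fold higher, 8.39% of the 2-fold lower and 6.89% of all measured genes, and the CACCC-type motif in 23.3%, 25.3% and 19.3%. A match describes letters and is no evidence of binding.

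The 15 genes with the highest ratios included Mt2 and the rRNA row CT010467.1, and the other 13 had few or no reads in a typical control cell. The median control cell was at 0 CPM for all 13. These genes were picked for their high ratios, and the limit on dominant cells applied only to the plate with the larger sum. Low control levels partly follow from that choice and are no separate result. The gene 0610040J01Rik on chromosome 5 (63812363 to 63899625) had 2 counts in the whole control plate, 0.0178 CPM with an interval of 0.00216 to 0.0644, and 50.1 CPM with dexamethasone (48.7 to 51.5). It was found in 2 of 93 control cells and 63 of 94 dexamethasone cells. Arhgef10l, a guanine nucleotide exchange factor, was at 1.05 and 51.6 CPM (5.59), with a count in 4 control and 72 dexamethasone cells. Rec8, a cohesin subunit known from meiosis, was at 1.62 and 65.5 CPM (5.32) with 6 and 76 cells, and Gna14, a G protein alpha subunit, at 1.61 and 44.8 CPM (4.78) with 6 and 70 cells.

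Siae, a sialic acid esterase, was at 8.52 and 123 CPM (3.85) and was found in 17 control and 89 dexamethasone cells, with a median dexamethasone cell of 111 CPM. Perp, a p53 target of cell junctions, was at 5.99 and 87.9 CPM (3.87), and the transcription factor Nfia at 3.49 and 48.4 CPM (3.79). A Perp count was present in 11.8% of control and 83% of dexamethasone cells, and a Nfia count in 9.68% and 83%. At equal depth these shares were 9.78% and 67.4% for Perp and 7.61% and 80.4% for Nfia. The others were Pkd1l3 (3.66), Tspyl3 (3.50), Clstn1 (3.19), Fam198b (3.19), the exchange factor Arhgef3 (9.06 and 80.5 CPM, 3.15) and the TGF-beta family ligand Gdf3 (3.12). In the control plate 1 to 3 cells held 50% of the reads of these genes, and in the dexamethasone plate 8 to 22 cells did. Picking genes by a high ratio favours few control reads, so this contrast is partly built in. No gene at 20 CPM or more that differed by at least 2-fold on day 3 had ratios of at least 2-fold in the other direction on both earlier days.

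Erythropoietin signalling genes had 2 of 23 measured members at least 2-fold higher, 7 at least 2-fold lower and a median of -0.27. Over all measured genes 7.27% were at least 2-fold higher and 8.1% at least 2-fold lower, and the higher members were near that share. The receptor Epor was at 248 and 225 CPM (-0.14), with median cells of 213 and 212 CPM. The lower members included Cish at 303 and 111 CPM (-1.45), Pim1 at 137 and 46.7 CPM (-1.55), Socs3 at 12.03 and 2.49 CPM (-2.26) and the survival gene Bcl2l1 at 375 and 55.8 CPM (-2.75). For Bcl2l1 the median cells were 74.7 and 36.4 CPM and the highest 6633 and 687 CPM, and 50% of its control reads lay in 7 cells. The receptor-bound kinase Jak2 was at 34.4 and 10.3 CPM (-1.74) with median cells below 1 CPM on both plates. The higher members were Stat5a and Pim2, the latter at 4.32 and 14.95 CPM (1.79). Socs2 was at 42.3 and 32.6 CPM and Id1 at 9.54 and 16.5 CPM. Of 11 measured BCL2 family members none was at least 2-fold higher and 2 were at least 2-fold lower, Bcl2l1 and Bbc3 (-1.20), with a median of 0.21, and Mcl1 was at 40.1 and 39.8 CPM.

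In the insulin-like growth factor and PI3K list 3 of 17 measured members were at least 2-fold higher and 1 at least 2-fold lower, with a median of 0.37. The shares over all measured genes were 7.27% and 8.1%. Beside Igf1r the higher members were Inpp5d, the SHIP1 phosphatase, at 28.3 and 127 CPM (2.16) and found in 37 control and 91 dexamethasone cells, and Pik3ip1 (3.16), with a count in 5 and 18 cells. The regulatory subunit Pik3r1 was at 127 and 42.8 CPM (-1.57), with median cells of 7.04 and 9.86 CPM.

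Genes of DNA replication were lower in sign in 28 of 28 measured members, but 2 reached 2-fold, Rrm2 (2337 and 969 CPM, -1.27) and the cyclin Ccne2 (-1.12), and the median was -0.51. G2 and mitosis genes were lower in sign in 26 of 27, with Nusap1 (-1.48) at least 2-fold lower and a median of -0.68. The mean log2(CPM + 1) over the replication list nevertheless overlapped closely between plates, with medians of 7.53 in control and 7.06 with dexamethasone and quartiles of 5.52 and 8.13 against 6.36 and 7.61. Among G1 regulators 9 of 22 measured members were at least 2-fold lower and 1 at least 2-fold higher, with a median of -0.68. The lower ones were the MYC antagonist Mxd1 (595 and 96.8 CPM, -2.62), Mxd3 (-1.63), Mxi1 (-1.40), the antiproliferative Btg1 (-2.10) and Btg2 (408 and 133 CPM, -1.61), the CDK inhibitors Cdkn1b (-1.58) and Cdkn2d (-1.23), Ccng2 (-1.66) and the erythroid D cyclin Ccnd3 (1371 and 531 CPM, -1.37). The MYC partner Max was higher at 13.2 and 28.98 CPM (1.13), and Myc itself was at 250.5 and 441 CPM (0.82).

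Ribosome biogenesis genes were higher in sign in 22 of 25 members with 1 at 2-fold, Utp20 (1.42), and a median of 0.35. Per cell, the mean log2(CPM + 1) over this list had medians of 5.82 in control and 7.77 with dexamethasone, with quartiles of 3.75 and 7.61 against 7.15 and 8.23, so the lower quartile of the dexamethasone plate lay above the control median. Cytosolic ribosomal proteins (35 measured, median 0.21), nuclear respiratory chain genes (23 measured, median -0.01) and sterol synthesis genes (26 measured, median -0.10) had 0, 0 and 1 members at 2-fold in either direction. Of 8 mt- protein genes measured, 2 were at least 2-fold higher, mt-Nd2 (1.03) and mt-Nd3 (1.18), with a median of 0.14.

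Genes of the amino acid response and integrated stress pathway were lower in sign in 18 of 21 measured members and at least 2-fold lower in 10, with a median of -0.90. Atf4, the central factor of this response, was at 870 and 327 CPM (-1.41), with cells of 1.28, 786.5 and 2794 CPM in control, against 1.08, 289.9 and 1001 CPM with dexamethasone. The lowest members were Trib3 (514.7 and 42.5 CPM), found in 92 of 93 control and 54 of 94 dexamethasone cells, and the cystine transporter Slc7a11 (46 and 5.00 CPM, -3.20). Ddit3, which encodes CHOP, was at -2.24, Ppp1r15a at -2.34, the folate enzyme Mthfd2 at 726 and 226 CPM (-1.68) and Eif2ak1, the heme-regulated kinase, at 652.5 and 246.5 CPM (-1.41). Chaperones and foldases of the endoplasmic reticulum had a median of 0.15, with 1 of 19 at least 2-fold lower. In the antioxidant list 6 of 22 measured members were at least 2-fold lower and none at least 2-fold higher, with a median of -0.38, and the abundant red cell peroxidase Prdx2 was at 3743 and 1443 CPM (-1.38).

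The counts of the next lists stand beside shares of 7.27% higher and 8.1% lower over all measured genes. Known p53 targets had 3 of 22 members at least 2-fold higher, Perp, Phlda3 (14.2 and 45.5 CPM, 1.68) and Tnfrsf10b (1.09), and 3 at least 2-fold lower, Btg2, Sesn2 and Bbc3, with a median of 0.21. Cdkn1a was at 606.5 and 346 CPM (-0.81). In the glycolysis and hypoxia list, with a median of 0.20 over 22 members, the HIF prolyl hydroxylases Egln1 and Egln3 were at least 2-fold higher and Slc2a1 and the mitophagy gene Bnip3 at least 2-fold lower. Egln3 was at 11.5 and 60.8 CPM (2.4) and found in 15 control and 78 dexamethasone cells. Of 15 interferon and antigen presentation genes 3 were at least 2-fold higher, Tap1 (2.64), Bst2 (1.31) and Irf9 (1.06), and 1 lower, Oasl2 (-6.31), of whose control reads 1 cell held 33.1%. Of 12 measured annexins and S100 genes 3 were at least 2-fold higher, Anxa2 (1.13), Anxa5 (1.31) and S100a10 (2.28), and 4 at least 2-fold lower, Anxa1, Anxa3, S100a8 and S100a9, with a median of -0.17. The control cell with neutrophil markers and a score of 3.28 held 63.3% of the Anxa1, 57.8% of the S100a8 and 72.1% of the S100a9 reads of its plate. Without it their log2 ratios were -2.59, -3.88 and -10.33. S100a10 was at 0 CPM in the median control cell and 60.4 CPM in the median dexamethasone cell.

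Megakaryocyte-list genes were at least 2-fold higher in 6 of 10 measured members and at least 2-fold lower in 2, with a median of 1.53. For some members the reads lay in 1 dexamethasone cell with an erythroid score of 2.86, which held 75.4% of the Itgb3 reads and 68.8% of the Gp1bb reads of its plate. Without it the log2 ratio was 0.34 in place of 2.36 for Itgb3 and 0.88 in place of 2.56 for Gp1bb. Other members were spread over many cells. Itga2b, which encodes CD41, was at 50 and 151 CPM (1.6, and 1.14 without that cell), with median cells of 0.797 and 93.8 CPM. Gp5 was at 44.9 and 124 CPM (1.46) and Nrgn at 0.696 and 15.1 CPM (4.41), with a Nrgn count in 12 control and 83 dexamethasone cells. Cd9 went the other way at 139.5 and 43.1 CPM (-1.69).

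Neutrophil-list genes were at least 2-fold lower in 11 of 13 measured members, with a median of -2.22, and came from few wells on both plates. Mpo, the granule peroxidase, was at 1059 and 441.6 CPM (-1.26), and its highest cells were at 27470 and 13930 CPM against medians of 3.85 and 0.691 CPM. One control cell with a score of 3.28 held 99.2% of the Ngp reads and 70.3% of the Lyz2 reads of its plate, and without it their log2 ratios were -2.89 in place of -9.87 and -0.47 in place of -2.22. Leaving out the 9 control and 10 dexamethasone cells with myeloid markers, a choice made after seeing the data, turned the ratio of Mpo to 0.57.

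To set cells of like progress side by side, cells with an erythroid score between 6.09 and 9.21 were compared, which is the span from the 10th percentile of control to the 90th percentile of dexamethasone cells. It holds 41 control cells (44.1%) and 54 dexamethasone cells (57.4%) and is a slice of a score, not a cell type. The median scores inside it were still 8.21 and 7.10. With the score genes left out, 876 of 9135 measured genes (9.59%) were at least 2-fold higher and 447 (4.89%) at least 2-fold lower. List medians in this range are set beside those of the same genes over all cells. Heme synthesis had a median of -0.41 over 16 genes with none at 2-fold, against -0.98 over all cells. Organelle clearance was at -0.50 with 6 of 23 lower, against -1.40, and the membrane skeleton at -0.26 with none of 11 at 2-fold, against -0.57.

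The glucocorticoid target list had a median of 0.77 in the range, against 0.81, with 9 of 19 at least 2-fold higher and 2 lower. This list includes Mt2, Fkbp5, Per1 and Tsc22d3, which were used to choose how the header is read, so it is not independent evidence. Early regulators were at 0.71, against 0.95, and progenitor surface genes at 1.46, against 0.04, with 7 of 13 at least 2-fold higher. The amino acid response list was at -0.73, against -0.90, with 8 of 21 at least 2-fold lower, and the replication list at -0.53. Ribosome biogenesis was at -0.15, on the other side of 0 from its median over all cells. Kit had a log2 ratio of 2.08 within the range, Mt2 5.78, Mt1 2.32, Per1 2.4 and Il1rl1 2.82, while Slc2a1 was at -0.71 and Bpgm at -0.31. CT010467.1 was at 3.19.

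**Figure D5:**
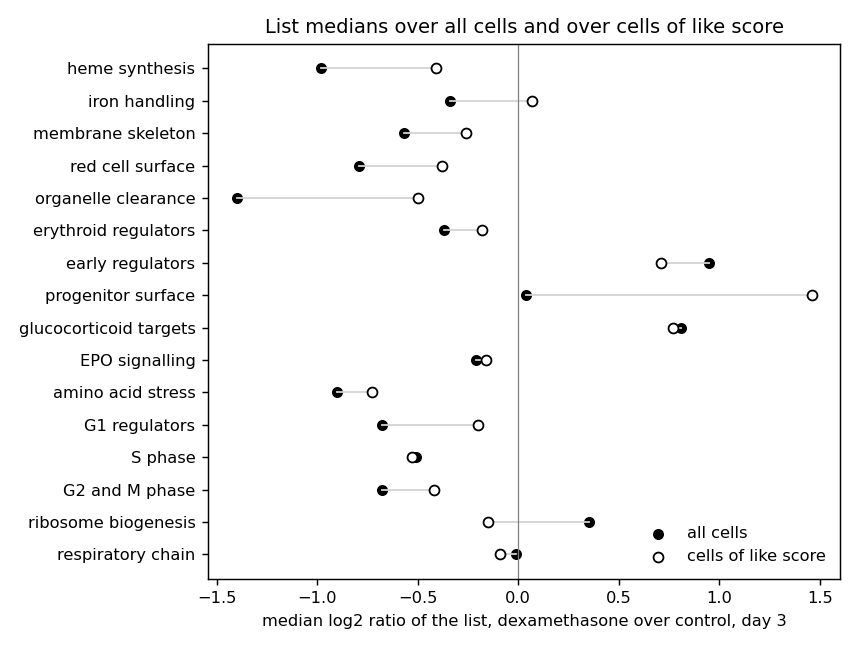
Median log2 ratio of 16 gene lists, dexamethasone over control on day 3 (x axis), over all kept cells (filled) and over cells with an erythroid score of 6.09 to 9.21 (open), for the same genes, with score genes left out. Organelle clearance is at -1.40 over all cells and -0.50 in the range, glucocorticoid targets are at 0.81 and 0.77, and ribosome biogenesis is at 0.35 and -0.15.

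The day 3 differences overlapped with those of the earlier days, which have their own plates of both treatments. Of the 690 genes at least 2-fold higher on day 3, 270 (39.1%) were also at least 2-fold higher on day 2, where 749 of the measured genes (7.89%) were, and 75 (10.9%) on day 1, where 209 (2.2%) were. These are 36% of the genes higher on day 2 and 35.9% of those higher on day 1. Of the 769 lower genes, 343 (44.6%) were also lower on day 2, where 797 (8.4%) were, and 144 (18.7%) on day 1, where 327 (3.45%) were. These are 43% and 44% of the genes lower on days 2 and 1. A ratio of at least 2-fold in the other direction was found for 19 of the higher genes (2.75%) and 68 of the lower genes (8.84%) on day 2, and for 17 (2.46%) and 34 (4.42%) on day 1. For Mt2 the control plates of days 1, 2 and 3 held 6.89, 3.45 and 0.963 CPM, against 63.7, 159 and 76.5 CPM in the dexamethasone plates. Kit went from 314 through 139 to 49.5 CPM in control and was at 489, 738 and 279 CPM with dexamethasone, so its dexamethasone level on day 3 was near the control level of day 1. Slc2a1 was at 51.98, 239 and 520.8 CPM in control, against 67.8, 216.5 and 53.8 CPM with dexamethasone, with log2 ratios of 0.38 and -0.14 on days 1 and 2.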

How the data were processed

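Single cells sorted into wells of 96-well plates were sequenced as polyadenylated RNA, with 1 plate for each of days 1 to 3 with and without dexamethasone. The authors deposited whole-number counts per gene and well for 49466 genes, aligned with STAR 2.4 to GRCm38 and counted with featureCounts, per the submitters' processing notes. For the annotation release, the strand setting and reads shared between genes, the choice is not given in the sources used here. The table's header holds 1 empty field more than its rows have values. Dropping it gave 576 names, of which 575 were used and 1 column was not. A reading shifted by 1 column would move wells between plates, and known glucocorticoid targets had been used in earlier work to choose this reading.

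Kept cells (at least 50000 counts, 1500 genes, at most 20% mt- counts) held 66140 to 2380072 counts in control and 80188 to 1994298 with dexamethasone. Their counts were summed per plate (116623968 and 100216022) and scaled with TMM over the 6 plates in edgeR 4.0.16 (R 4.3.3), with Python 3.11.15 for the rest. Log2 ratios used a prior count of 2. The steps were run on simulated plate sums with Poisson counting error and some genes changed. Those sums had no spread between cells and no plate effect, so they say nothing on dominant cells or on differences between plates. With 1 plate a side no test was made. Doublets were not called, since wells were sorted as single cells. Genes were named from 39 lists, and as the 15 highest and 15 lowest ratios among genes at a mean of 20 CPM or more with at most 25% of the larger sum in 1 cell. A further rule, for genes with opposite ratios on both earlier days, found 0 genes. Members and lists were chosen with earlier results of these data known. Alternatives covered scaling, with DESeq2 1.42.0 size factors among them, cell and gene filters, thinning, equal weight of cells, cells of like score and cells with markers of other types. Promoter windows are RefSeq's, build GRCm38.p6. Values of a few members of the lists are not reported here.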

Additional observations from a re-analysis of the deposited data

How the results depend on the processing

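No paired analysis was possible because each side is 1 plate and well numbers only name positions. The counts of 690 higher and 769 lower genes became 1322 and 1167 with a mean of at least 1 CPM in place of 5, which lets in more genes, and 86 and 303 with at least 50 CPM, which lets in fewer. Among cells of like erythroid score, with the score genes counted, 455 genes were at least 2-fold lower (447 with them left out). Of the genes past 2-fold there, 65.8% were higher, against 47.3% over all cells. Leaving out every cell with markers of another type kept 51 control and 7 dexamethasone cells, with 1421 lower genes and a score difference of -1.08. Other scalings gave 751 higher and 684 lower genes (library size) and 654 and 797 (DESeq2 size factors). The 151 genes named here that were past 2-fold gave 1357 values under the alternatives, 1342 of them with the same sign as over all cells. These genes were picked as past 2-fold in the same cells, so agreement in sign is partly built in. The 2-fold calls held less often. Among cells of like score 457 of the 690 higher and 238 of the 769 lower calls were made again. In the set with 7 dexamethasone cells these numbers were 262 and 442. Of the named genes, the sign in that set was the other way for Aqp1 (-1.66), Gata2 (-0.40), Stat5a (-0.72), Pik3ip1 (-0.87), Fcgr3 (0.09), Zfp36 (0.09), Anxa3 (0.09), Nusap1 (0.12) and Mxd3 (0.05). Among cells of like score it was so for Meis1 (-3.46), Fcgr2b (4.68), Fcgr3 (0.73) and Cdkn2d (0.08). The next 2 alternatives were chosen after seeing the data. Without cells carrying neutrophil, macrophage or mast markers, Mpo was at 0.57 and Fcgr2b at 4.15, and 775 genes were higher and 759 lower. Without the rRNA rows 740 genes were higher and 760 lower, and the score difference was -2.06. The cause of these differences was not tested. Depth limits the low genes, since 3 counts correspond to 0.0268 CPM in control and 0.0299 CPM with dexamethasone.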
